A study of Mus musculus with 10 samples.

Results

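The semaphorins, plexins and neuropilins form a ligand and receptor system first described in axon guidance, and 31 genes of it were measured in whole embryonic mouse pancreas with and without intact Fgf9. The genes were taken by name from a count table of 54532 genes, as 20 semaphorins, 9 plexins and 2 neuropilins, with the antisense transcripts of Plxna4 left out. All 31 passed the filter on low counts, among 18898 genes tested. Semaphorins of class 3 are secreted, those of classes 4, 5 and 6 span the membrane, and Sema7a is held by a lipid anchor. Plexins are the signalling receptors, and neuropilins are co-receptors that most class 3 semaphorins need and that also bind vascular endothelial growth factors. Outside the nervous system the family is known for steering blood vessels, immune cells and branching epithelia.

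The Fgf9-LacZ line carries a LacZ cassette in Fgf9, the gene of a secreted fibroblast growth factor, and was kept on C57BL/6J. Each of 10 libraries held RNA pooled from several pancreata, with 3 control and 2 null-labelled pools at embryonic day 13.5 (E13.5) and the same numbers at E14.5. Controls mixed Fgf9 +/+ and +/- littermates, with 6 to 12 pancreata a pool, and null-labelled pools held 3 to 7 pancreata of genotype -/-. Whether pools shared litters is not in the labels, and p-values reflect only how these pools varied. Total counts were 17736769 to 22798257 per library, and the 31 genes took 0.191 to 0.274 percent of them.

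The targeted gene checks the labels only in part, because gene counts do not show which stretch of transcript the insertion leaves. Levels are in CPM, read counts scaled to a library total of 1000000 with TMM factors. Fgf9 was at 18.4, 11.3 and 16.2 CPM in E13.5 controls and 5.57 and 7.66 CPM in E13.5 null-labelled libraries, with both null-labelled libraries lowest. It was at 13.6, 8.76 and 6.96 CPM in E14.5 controls and 11.7 and 6.14 CPM in E14.5 null-labelled libraries, and there the groups overlapped, so the groups are called null-labelled throughout. The pancreatic regulators Pdx1, Ptf1a, Sox9 and Nkx6-1 were detected in every library. Liver RNA moved with the null label. The summed level of 12 liver genes was 362 to 501 CPM in E13.5 controls and 605 to 655 CPM in null-labelled libraries. At E14.5 it was 442 to 515 against 664 to 702 CPM. Ttr, the largest part of the sum in controls, did not rise, with means of 279 and 276 CPM at E13.5 and 322 and 274 CPM at E14.5. Alb averaged 12.6 and 74.7 CPM at E13.5 and 19.5 and 115 CPM at E14.5. Over both stages edgeR (adjusted p under 0.05) called 6 of the 12 higher and 0 lower, against 1.46 and 0.418 percent of all genes tested. Of 10 skeletal muscle genes Myod1, Myog and Ckm were at 0 in some library, and the summed level was high in the null-labelled libraries numbered 1. It was 21 to 30.6 CPM in E13.5 controls, 72.9 CPM in E13.5 null 1 and 27.1 CPM in E13.5 null 2, and 18.4 to 36.1 CPM in E14.5 controls, 242 CPM in E14.5 null 1 and 27.9 CPM in E14.5 null 2. In whole pancreas, fewer or more cells of a type and less or more RNA per cell cannot be told apart.

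Sema3e, the ligand gene on which the results turn, lies on chromosome 5 in a row with 3 others of its class, and the start regions of the 4 are shown to let them be compared. Each holds 300 bases from RefSeq on GRCm38.p6, 250 before the start that RefSeq lists and 50 after it, all on the plus strand, at chr5:12382916-12383215 for Sema3d, chr5:13396534-13396833 for Sema3a, chr5:14025026-14025325 for Sema3e and chr5:17574566-17574865 for Sema3c. The RefSeq start is that of the GENCODE M21 gene for Sema3e and lies before it for Sema3d. For Sema3c it lies just inside the gene, which starts at 17574281. For Sema3a it lies far inside the gene, which starts at 13125414, so the region at that gene start is not shown. Capitals mark the letters GGGCGG (the GC box) and CCAAT, searched on both strands, and a match is a description of the sequence only.
Sema3d: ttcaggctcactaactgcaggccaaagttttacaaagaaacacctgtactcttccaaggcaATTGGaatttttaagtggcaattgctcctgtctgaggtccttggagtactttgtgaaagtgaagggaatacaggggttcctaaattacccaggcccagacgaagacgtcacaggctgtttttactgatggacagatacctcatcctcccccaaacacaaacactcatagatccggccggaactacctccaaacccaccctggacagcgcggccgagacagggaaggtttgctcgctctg
Sema3a: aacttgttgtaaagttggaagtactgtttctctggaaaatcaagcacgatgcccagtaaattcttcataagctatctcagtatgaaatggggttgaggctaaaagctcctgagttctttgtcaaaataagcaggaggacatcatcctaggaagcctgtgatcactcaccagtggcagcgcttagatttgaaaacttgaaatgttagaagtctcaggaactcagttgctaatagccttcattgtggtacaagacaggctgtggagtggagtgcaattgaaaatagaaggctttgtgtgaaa
Sema3e: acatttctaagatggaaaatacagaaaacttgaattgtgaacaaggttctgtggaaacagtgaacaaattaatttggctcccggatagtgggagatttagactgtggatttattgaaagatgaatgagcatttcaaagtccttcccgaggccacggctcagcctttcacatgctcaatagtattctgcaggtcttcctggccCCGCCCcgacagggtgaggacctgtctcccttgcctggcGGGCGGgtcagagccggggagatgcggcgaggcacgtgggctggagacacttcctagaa
Sema3c: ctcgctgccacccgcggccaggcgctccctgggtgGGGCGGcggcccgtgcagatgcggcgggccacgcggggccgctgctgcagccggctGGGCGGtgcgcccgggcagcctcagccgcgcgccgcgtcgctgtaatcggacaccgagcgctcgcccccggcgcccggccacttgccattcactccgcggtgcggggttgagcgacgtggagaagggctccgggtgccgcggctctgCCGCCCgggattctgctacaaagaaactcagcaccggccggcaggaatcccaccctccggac

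The 4 start regions differed in base composition. Sema3e held 11 CG dinucleotides and 2 GC boxes, and Sema3c held 42 and 3. Sema3d held 8 CG dinucleotides with 1 CCAAT box and no GC box. The region shown for Sema3a, far inside the gene, held 2 CG dinucleotides and neither box. Among 32851 mouse start regions of that length, 35.7 percent held GGGCGG, 37.4 percent held CCAAT and 13.6 percent held TATAAA, which none of the 4 had. Their median number of CG dinucleotides was 7. Of the 31 genes, 26 had such an entry and Plxna1, Plxna4, Sema3b, Sema3f and Sema6a did not.

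The start region of Sema5a, the gene with the largest negative difference at E13.5, is shown beside them, with its 5 GC box matches in capitals, of which 3 run together. It lies at chr15:32244563-32244862 on the plus strand and held 23 CG dinucleotides.
Sema5a: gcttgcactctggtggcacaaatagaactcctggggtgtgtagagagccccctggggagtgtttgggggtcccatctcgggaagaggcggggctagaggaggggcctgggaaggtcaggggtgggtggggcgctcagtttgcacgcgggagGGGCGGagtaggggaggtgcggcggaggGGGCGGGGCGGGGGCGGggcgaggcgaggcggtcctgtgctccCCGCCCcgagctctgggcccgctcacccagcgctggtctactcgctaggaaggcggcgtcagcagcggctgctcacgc

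Levels across genes were compared per kilobase of exon. In E13.5 controls the receptors Plxnb2, which binds class 4 semaphorins, and Plxnd1, the receptor of Sema3e, were highest at 54.9 ± 2.4 and 28.1 ± 2.2 CPM per kb (SD, n = 3). The order below Plxnb2 depends on the length used, since per kilobase of the longest transcript Nrp1 moved from rank 6 to rank 2 and Plxnd1 from rank 2 to rank 4 in these controls. Sema3f, a secreted ligand that signals through Nrp2, led the ligands at 22.8 ± 3.8 CPM per kb, followed by Sema5a at 11.8 ± 2.4 and Sema4c, a ligand of Plxnb2, at 9.87 ± 0.99 CPM per kb. Plxna1 and Plxnb1 were at 17.1 ± 1.3 and 17.1 ± 1.4 CPM per kb, within each other's spread, and Nrp1 was at 15.9 ± 1.4 CPM per kb. Sema6a and Sema7a were at 8.29 ± 0.92 and 4.29 ± 0.9 CPM per kb, and Plxnc1, the receptor of Sema7a, at 1.24 ± 0.45 CPM per kb. At the bottom lay Sema4f, Sema3e and Plxnb3, at 0.424 ± 0.13, 0.313 ± 0.044 and 0.225 ± 0.062 CPM per kb. In the E14.5 controls the leading ligand was again Sema3f at 24.9 ± 3.2 CPM per kb, and Sema7a was at 7.22 ± 1.6 CPM per kb.

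**Figure D1:**
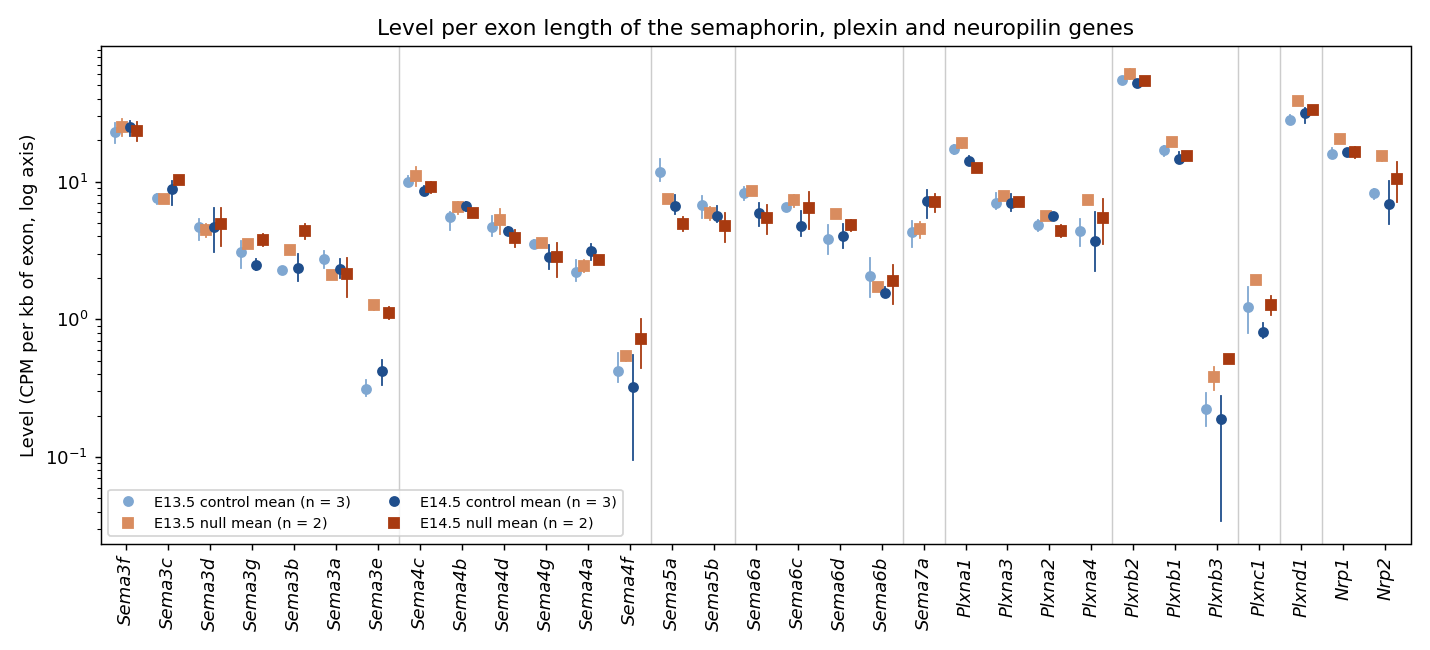
Mean level of each gene in the 4 groups, in CPM per kb of exon on a log axis, with lines from the lowest to the highest library; null stands for null-labelled. Plxnb2 stands highest in every group, followed on this measure of length by Plxnd1, and Sema3e is among the 3 lowest genes in controls.

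Sema3e (ENSMUSG00000063531, chromosome 5, 14025276 to 14256689, plus strand), which encodes a secreted ligand that repels endothelial cells through Plxnd1 without a neuropilin, was the family member with the largest rise in null-labelled pancreas at E13.5. It was at 3.35, 2.57 and 2.78 CPM in E13.5 controls and 12.6 and 10.9 CPM in E13.5 null-labelled libraries, from 54 to 72 reads in a control and 235 and 254 reads in the null-labelled libraries. Both null-labelled libraries lay far above every control. The log2 difference was 2.01 (SE 0.26, edgeR adjusted p = 0.0069). At this stage 0.132 percent of all genes tested were called higher.

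A day later Sema3e was at 3.11, 3.81 and 4.73 CPM in E14.5 controls and 11.5 and 9.29 CPM in E14.5 null-labelled libraries. The groups were again well apart, with the lowest null-labelled library above the highest control. The difference of 1.42 (SE 0.26, edgeR adjusted p = 0.056), 2.68-fold, missed the threshold of 0.05 in this fit. The replicate block compares libraries of the same number, so control 3 of each stage, which has no partner, adds nothing to its genotype differences. The block gave 1.58 (edgeR adjusted p = 0.0051). Over both stages together the mean difference was 1.72 (SE 0.18, edgeR adjusted p = 0.00094), 3.29-fold, and it was called under each of the 16 alternatives run, at 1.58 to 1.8. The size of the difference was not shown to change with stage (interaction -0.59 (SE 0.37, edgeR adjusted p = 1), 95% interval -1.41 to 0.22). The call at E13.5 alone was lost without E13.5 control 2 (edgeR adjusted p = 0.065), E13.5 null 1 (edgeR adjusted p = 0.089) or E13.5 null 2 (edgeR adjusted p = 0.051), at differences of 1.92 to 2.11. Where 1 null-labelled library is left alone in an arm, its spread is taken from the other groups.

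Summed mesenchyme markers were also higher in the null-labelled libraries. Those 12 genes were at 6539 to 7339 CPM in E13.5 controls and 8739 to 10498 CPM in null-labelled libraries, with 11 of 12 differences positive. At E14.5 they were at 6243 to 9776 against 10401 to 15653 CPM, with 10 of 12 positive. The collagen genes Col1a1, Col1a2 and Col3a1 had the highest levels and weigh most in the sum. The receptor genes Pdgfra and Pdgfrb averaged 179 and 145 CPM in E13.5 controls and 167 and 148 CPM in null-labelled libraries. Their E14.5 means were 96.1 and 123 CPM in controls and 113 and 116 CPM in null-labelled libraries. The part of cell make-up in the Sema3e values was not tested.

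**Figure D2:**
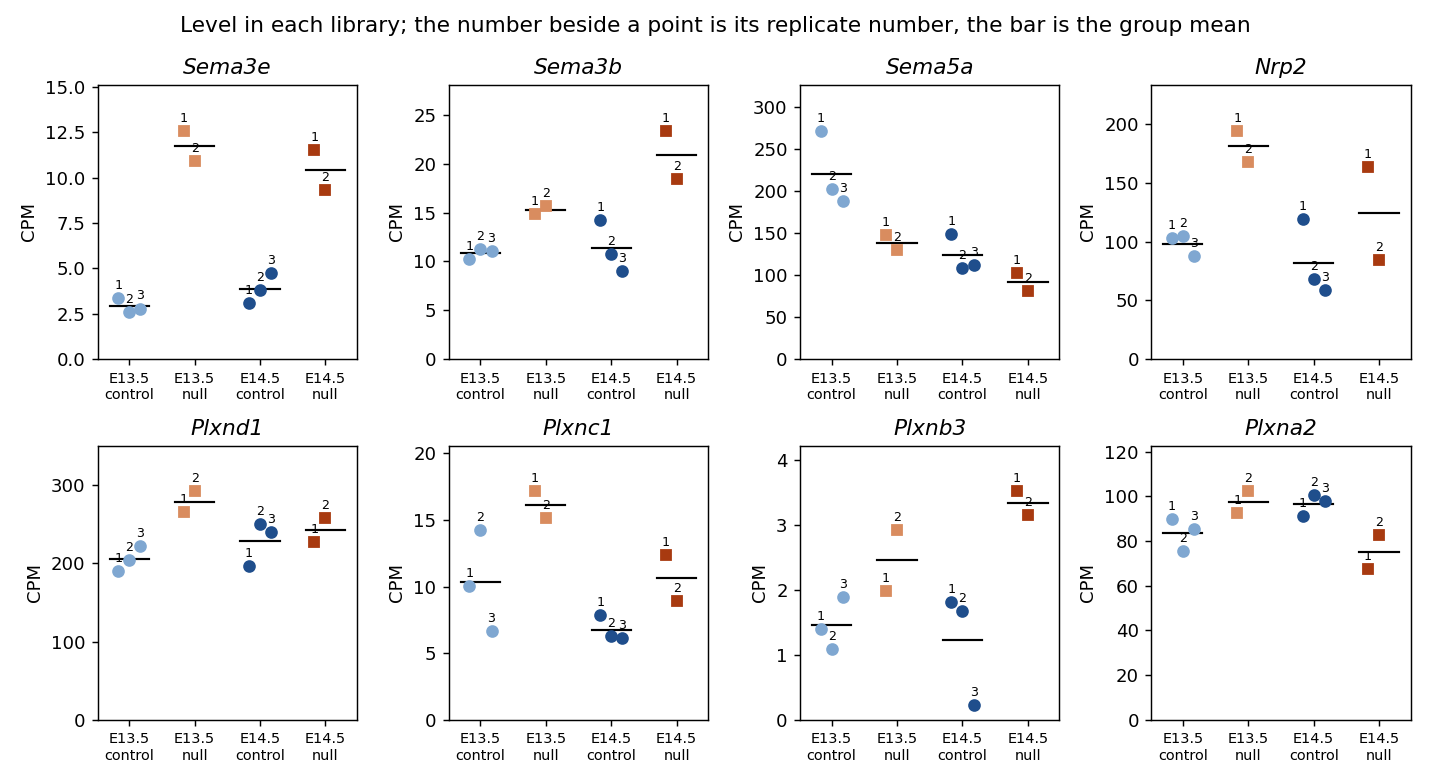
Level in CPM of 8 genes in each library, with the replicate number beside each point and a bar at the group mean; null stands for null-labelled. Sema3e lies at 9.29 to 12.6 CPM in the 4 null-labelled libraries and at no more than 4.73 CPM in the 6 controls, while Nrp2 at E14.5 is high in the libraries numbered 1.

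Sema3e is flanked on the chromosome by other members of its class. From Sema3d to Sema3c the interval runs from 12383385 to 17730268 and holds 21 annotated protein-coding genes, of which 8 were tested. Among them 1, Sema3e, was called by edgeR at E13.5 and over both stages. Sema3d, at the left end of the row, was at 42.4, 46.1 and 32.2 CPM in E13.5 controls and 42.4 and 33.9 CPM in E13.5 null-labelled libraries, with the groups overlapping. Its 95% interval for the log2 difference was -0.73 to 0.58. Sema3a, the founding repellent of the family, which needs Nrp1, was at 43.4, 37 and 32.7 CPM in E13.5 controls and 28.7 and 29.8 CPM in E13.5 null-labelled libraries. All null-labelled values lay below the controls there, at -0.37 (SE 0.24, edgeR adjusted p = 0.94). Sema3c, which binds both neuropilins and is known in heart outflow tract formation, was at 49.5, 57.7 and 55.2 CPM in E13.5 controls and 56.5 and 50.6 CPM in E13.5 null-labelled libraries, and its interval was -0.37 to 0.34. Hgf, which lies between them and encodes the ligand of Met, had a log2 difference of 0.057 (SE 0.32, edgeR adjusted p = 1), and Pclo, the next tested gene after Sema3e, 0.54 (SE 0.2, edgeR adjusted p = 0.56). At E14.5 Sema3c was at 48.7, 70.2 and 71.8 CPM in controls and 73.6 and 73.5 CPM in null-labelled libraries, above every control. That difference was 0.21 (SE 0.16, edgeR adjusted p = 0.82), and the groups of Sema3a and Sema3d overlapped at E14.5. Over all genes tested 11.9 percent were higher without overlap at that stage. Whether Sema3e differed from its neighbours was not tested as a difference.

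**Figure D3:**
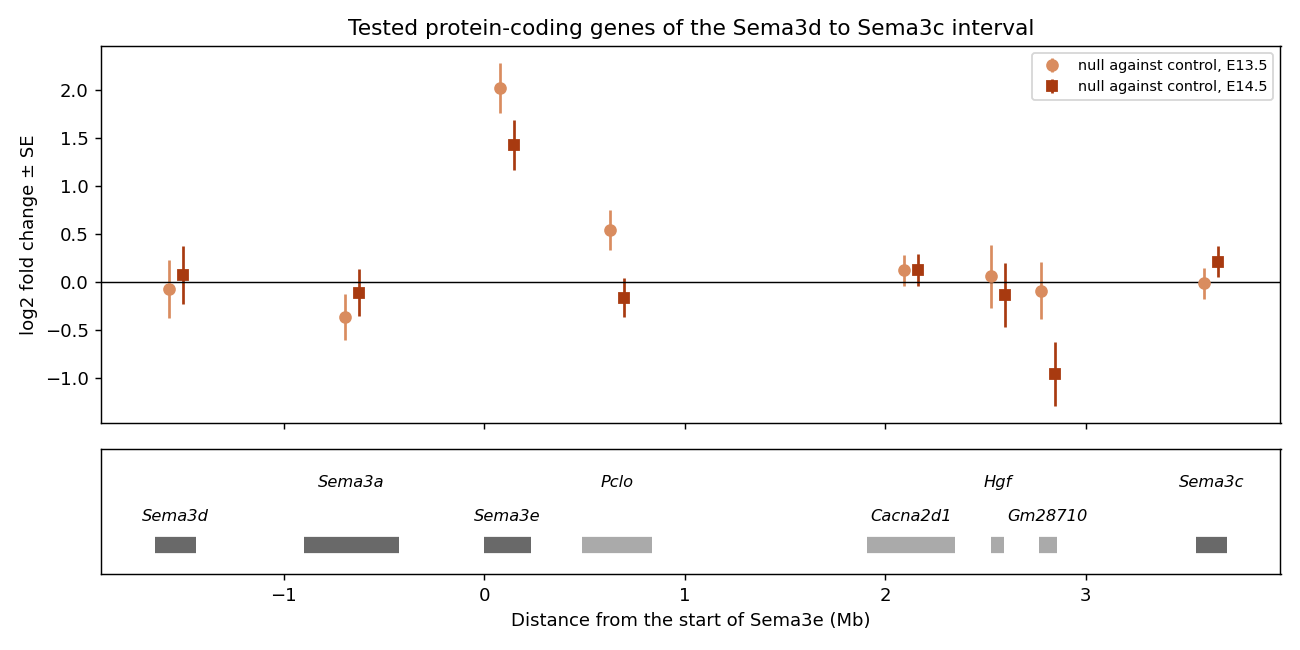
Above, log2 fold change of null-labelled against control libraries with its SE at both stages for the 8 tested protein-coding genes between Sema3d and Sema3c; below, the gene bodies by distance in Mb from the start of Sema3e, with semaphorins dark. Sema3e stands at 2.01 and 1.42, and the other 7 genes lie between -0.96 and 0.54.

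Sema3b (ENSMUSG00000057969, chromosome 9, 107597674 to 107609229, minus strand), a secreted semaphorin known as a tumour suppressor candidate in lung, was the other member edgeR called over both stages without the replicate block. It was at 10.2, 11.2 and 11.1 CPM in E13.5 controls and 14.8 and 15.6 CPM in E13.5 null-labelled libraries, and at 14.2, 10.7 and 9.02 CPM in E14.5 controls and 23.4 and 18.4 CPM in E14.5 null-labelled libraries. At both stages the null-labelled libraries lay above every control. The difference was 0.49 (SE 0.21, edgeR adjusted p = 0.7) at E13.5 and 0.88 (SE 0.21, edgeR adjusted p = 0.13) at E14.5, the latter 0.75 (edgeR adjusted p = 0.042) with the replicate block. Over both stages it rose by 0.69 (SE 0.15, edgeR adjusted p = 0.037), 1.61-fold, where 1.46 percent of all genes tested were called higher and 0.418 percent lower.

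The Sema3b call was lost on leaving out any 1 of 8 libraries. Fits without E13.5 control 1, 2 or 3, E13.5 null 1 or 2, E14.5 control 2 or 3, or E14.5 null 1 had edgeR adjusted p = 0.082 to 0.17, with differences of 0.59 to 0.71. Without both null-labelled libraries numbered 1 it was 0.61 (edgeR adjusted p = 0.28). Sema3f, the most abundant ligand, also on chromosome 9, was at 99.4, 118 and 138 CPM in E13.5 controls and 112 and 147 CPM in E13.5 null-labelled libraries and 111, 134 and 143 CPM in E14.5 controls and 102 and 142 CPM in E14.5 null-labelled libraries. Its groups overlapped at both stages, with 95% intervals for the log2 difference of -0.28 to 0.54 and -0.5 to 0.33.

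The remaining class 3 gene, Sema3g, encodes an Nrp2 ligand made by endothelium. It was at 12.5, 10.8 and 10.4 CPM in E14.5 controls and 18.9 and 15.4 CPM in E14.5 null-labelled libraries, above every control but not called, at 0.61 (SE 0.21, edgeR adjusted p = 0.37), and its groups overlapped at E13.5. Sema3g lies on chromosome 14, as Fgf9 does. The summed level of 13 endothelial markers was 541 to 595 CPM in E14.5 controls and 621 to 713 CPM in null-labelled libraries, and its part in the Sema3g value was not tested. Of the 7 class 3 genes, 2 were called higher and 0 lower over both stages by edgeR, and the same 2 by limma-voom and DESeq2.

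Sema5a (ENSMUSG00000022231, chromosome 15, 32244810 to 32696341, plus strand), a membrane semaphorin with thrombospondin repeats that binds Plxnb3 and other plexins, had lower levels in null-labelled libraries. It was at 272, 202 and 188 CPM in E13.5 controls and 147 and 130.2 CPM in E13.5 null-labelled libraries. Both null-labelled libraries lay below every control. The difference of -0.67 (SE 0.19, edgeR adjusted p = 0.26) did not pass, and with the replicate block it was -0.76 (edgeR adjusted p = 0.00033). The E14.5 levels were 149, 109 and 112 CPM in E14.5 controls and 103 and 81.3 CPM in E14.5 null-labelled libraries, again with no overlap. That difference was -0.42 (SE 0.19, edgeR adjusted p = 0.58), and -0.48 (edgeR adjusted p = 0.017) with the block. Over both stages it was -0.55 (SE 0.13, edgeR adjusted p = 0.066), -0.62 (edgeR adjusted p = 4.5e-05) with the block and called by DESeq2 (adjusted p = 0.0057).

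Its close relative Sema5b averaged 47.5 ± 8.4 CPM over 3 E13.5 controls (SD) and 41.9 ± 6.6 CPM over 2 null-labelled libraries (SD). The E14.5 means were 40.1 ± 6 and 33.7 ± 11 CPM. The groups overlapped at both stages. Over both stages the difference was -0.22 (SE 0.15, edgeR adjusted p = 0.67), and -0.33 (edgeR adjusted p = 0.041) with the block. The summed level of 9 spleen mesenchyme genes, of which Nkx2-5 was at 0 in some library, was 771 to 991 CPM in E13.5 controls and 674 to 755 CPM in null-labelled libraries. At E14.5 the ranges were 453 to 703 and 436 to 600.5 CPM, and the part of those cells in the Sema5a values was not tested.

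No class 4, 6 or 7 semaphorin was called between genotypes at either stage by edgeR, DESeq2 or limma-voom. At an unadjusted p of 0.05, 1 gene of these classes, Sema6d, passed as higher at E13.5 and 0 passed at E14.5, against 4.39 and 5.82 percent of all genes tested passing as higher. Among the 6 class 4 genes, whose products act on plexin B receptors and on immune cells, log2 differences at E13.5 ran from 0.01 in Sema4g to 0.34 in Sema4f. Sema4c was at 42.4, 43 and 50.5 CPM in E13.5 controls and 42.7 and 58.7 CPM in E13.5 null-labelled libraries, with overlap and a 95% interval of -0.19 to 0.51. Sema4f, with at most 95 reads in a library, ranged from 0.501 CPM in E14.5 control 3 to 5.3 CPM in E14.5 null 1. The class 6 genes encode membrane ligands of the A plexins. Sema6d, a Plxna1 ligand known in heart development, averaged 40.7 ± 10 CPM over 3 E13.5 controls (SD) and 61.7 ± 5.2 CPM over 2 null-labelled libraries (SD), without overlap. Its difference was 0.6 (SE 0.21, edgeR adjusted p = 0.44), and 0.45 (edgeR adjusted p = 0.049) with the block. Sema6a was at 80.3, 64.3 and 73.6 CPM in E13.5 controls and 73.7 and 75.8 CPM in E13.5 null-labelled libraries, with overlap and a 95% interval of -0.4 to 0.48. Sema7a, which also binds integrins, was at 11.1, 14.3 and 17 CPM in E13.5 controls and 12.8 and 16.8 CPM in E13.5 null-labelled libraries, with overlap and an interval of -0.46 to 0.6.

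Receptor genes stood on the positive side at E13.5. All 11 receptor genes, 9 plexins and 2 neuropilins, had a positive log2 difference, with a median of 0.37 where the median of all genes tested was -0.0092. In 8 of the 11 both null-labelled libraries lay above every control, which was so for 12.7 percent of all genes tested. None was called by edgeR, DESeq2 or limma-voom at this stage, and 4 higher and 0 lower passed an unadjusted p of 0.05. Of the 31 family members 7 higher and 1 lower did so, against 4.39 and 2.17 percent of all genes tested. With the replicate block Nrp2, Plxna4 and Plxnd1 were called higher, among 2.07 percent of genes called higher in that fit. At E14.5 8 of the 11 were positive, 3 lay above every control and 2 below, against 11.9 and 11.8 percent of all genes.

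Plxnd1 (ENSMUSG00000030123, chromosome 6, 115954811 to 115995005, minus strand), the endothelial receptor of Sema3e, was at 190.2, 204 and 222 CPM in E13.5 controls and 266 and 292 CPM in E13.5 null-labelled libraries. Both null-labelled libraries were above every control. The difference was 0.44 (SE 0.14, edgeR adjusted p = 0.33), and 0.5 (edgeR adjusted p = 0.0071) with the block. One day later Plxnd1 was at 196, 250.1 and 240.2 CPM in E14.5 controls and 227 and 258 CPM in E14.5 null-labelled libraries, where E14.5 control 1 was lowest and the groups overlapped, with a 95% interval of -0.21 to 0.38. The interaction with stage was -0.36 (SE 0.19, edgeR adjusted p = 1). Of 13 endothelial markers 13 had a positive difference at E13.5 and 12 at E14.5, none was at 0 in a library, and their summed level was 525 to 581 CPM in E13.5 controls and 702 to 771 CPM in null-labelled libraries. Their part in the Plxnd1 and neuropilin values was not tested.

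Nrp2 (ENSMUSG00000025969, chromosome 1, 62703285 to 62818695, plus strand), the co-receptor of Sema3f and of lymphatic growth factors, had the largest difference of the receptors at E13.5. It was at 103, 105 and 87.8 CPM in E13.5 controls and 195 and 168 CPM in E13.5 null-labelled libraries. Both null-labelled libraries stood far above every control. The difference was 0.88 (SE 0.29, edgeR adjusted p = 0.39), 1.84-fold, and 0.8 (edgeR adjusted p = 0.00023) with the block. Its E14.5 levels were 119, 67.9 and 58.5 CPM in E14.5 controls and 164 and 84.7 CPM in E14.5 null-labelled libraries, so that each library numbered 1 was high in its group and the groups overlapped. There the difference was 0.6 (SE 0.29, edgeR adjusted p = 0.62). Over both stages it was 0.74 (SE 0.2, edgeR adjusted p = 0.11), 0.6 (edgeR adjusted p = 7.2e-05) with the block and called without E14.5 control 1 (edgeR adjusted p = 0.0074) or without E14.5 null 2 (edgeR adjusted p = 0.016). The latter fit leaves the high E14.5 null 1 alone in its arm and assumes that it varies like the other groups.

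Nrp1 (ENSMUSG00000025810, chromosome 8, 128358604 to 128503363, plus strand), the co-receptor of Sema3a and of VEGF-A, was at 151, 172 and 145 CPM in E13.5 controls and 208 and 194 CPM in E13.5 null-labelled libraries, without overlap, a difference of 0.37 (SE 0.12, edgeR adjusted p = 0.43). Nrp1 at E14.5 was at 167, 158 and 159 CPM in E14.5 controls and 176 and 146 CPM in E14.5 null-labelled libraries, with overlap and a 95% interval of -0.27 to 0.27.

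Among the A plexins, which transmit class 3 and class 6 signals, Plxna1 was at 168, 144 and 154 CPM in E13.5 controls and 158 and 186 CPM in E13.5 null-labelled libraries and 138, 127 and 121 CPM in E14.5 controls and 120.1 and 107 CPM in E14.5 null-labelled libraries. It overlapped at E13.5 and lay below the controls at E14.5, at -0.18 (SE 0.13, edgeR adjusted p = 0.79). Plxna4, a receptor of neurons, was at 75.4, 62.2 and 47.9 CPM in E13.5 controls and 107 and 98.9 CPM in E13.5 null-labelled libraries, without overlap. The difference was 0.73 (SE 0.37, edgeR adjusted p = 0.82), and 0.59 (edgeR adjusted p = 0.0046) with the block. Plxna4 at E14.5 was at 85.1, 41.1 and 31.4 CPM in E14.5 controls and 105 and 49.3 CPM in E14.5 null-labelled libraries, high in both libraries numbered 1. The summed level of 14 neural and glial genes was 338, 238 and 222 CPM in E14.5 controls and 495 and 283 CPM in E14.5 null-labelled libraries, and 234, 273 and 263 CPM in E13.5 controls and 315 and 517 CPM in E13.5 null-labelled libraries. Their part in the Plxna4 values was not tested.

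Among the B plexins, Plxnb2, the most abundant member, was at 409, 444 and 419 CPM in E13.5 controls and 427 and 511 CPM in E13.5 null-labelled libraries and 392, 403 and 407 CPM in E14.5 controls and 411 and 419.8 CPM in E14.5 null-labelled libraries. It overlapped at E13.5, and at E14.5 the null-labelled libraries were above the controls by 0.053 (SE 0.12, edgeR adjusted p = 0.95). Plxnb3 (ENSMUSG00000031385, chromosome X, 73757090 to 73772514, plus strand), a receptor of Sema5a, was near the limit of detection, with 4 to 68 reads. It was at 1.4, 1.1 and 1.89 CPM in E13.5 controls and 1.98 and 2.93 CPM in E13.5 null-labelled libraries, and at 1.81, 1.67 and 0.223 CPM in E14.5 controls and 3.52 and 3.15 CPM in E14.5 null-labelled libraries. Null-labelled libraries lay above all controls at both stages, at 0.75 (SE 0.62, edgeR adjusted p = 0.97) and 1.42 (SE 0.62, edgeR adjusted p = 0.55). Plxnc1 (ENSMUSG00000074785, chromosome 10, 94790866 to 94944835, minus strand), the receptor of Sema7a, was at 10.1, 14.2 and 6.66 CPM in E13.5 controls and 17.1 and 15.1 CPM in E13.5 null-labelled libraries, and at 7.88, 6.29 and 6.12 CPM in E14.5 controls and 12.3 and 8.94 CPM in E14.5 null-labelled libraries. It too was higher without overlap at both stages, with 0.64 (SE 0.29, edgeR adjusted p = 0.73) and 0.65 (SE 0.29, edgeR adjusted p = 0.57). The mean over both stages was 0.65 (SE 0.2, edgeR adjusted p = 0.17). In all, 4 family members were higher and 1 lower without overlap at both stages, namely Plxnb3, Plxnc1, Sema3b and Sema3e, and Sema5a. Over all genes tested 4.16 percent were higher and 2.19 percent lower in that way.

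Apart from Plxna2, the members not yet described were Plxna3 and Plxnb1 among the receptors and Sema4a, Sema4b, Sema4d, Sema4g, Sema6b and Sema6c among the membrane ligands. In E13.5 controls their means ran from 8.14 CPM in Sema6b to 164 CPM in Plxnb1. Their log2 differences ran from -0.25 in Sema6b to 0.24 in Sema4b at E13.5 and from -0.23 in Sema4a to 0.43 in Sema6c at E14.5. None was called in either stage by edgeR, DESeq2 or limma-voom, or with the replicate block.

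**Figure D4:**
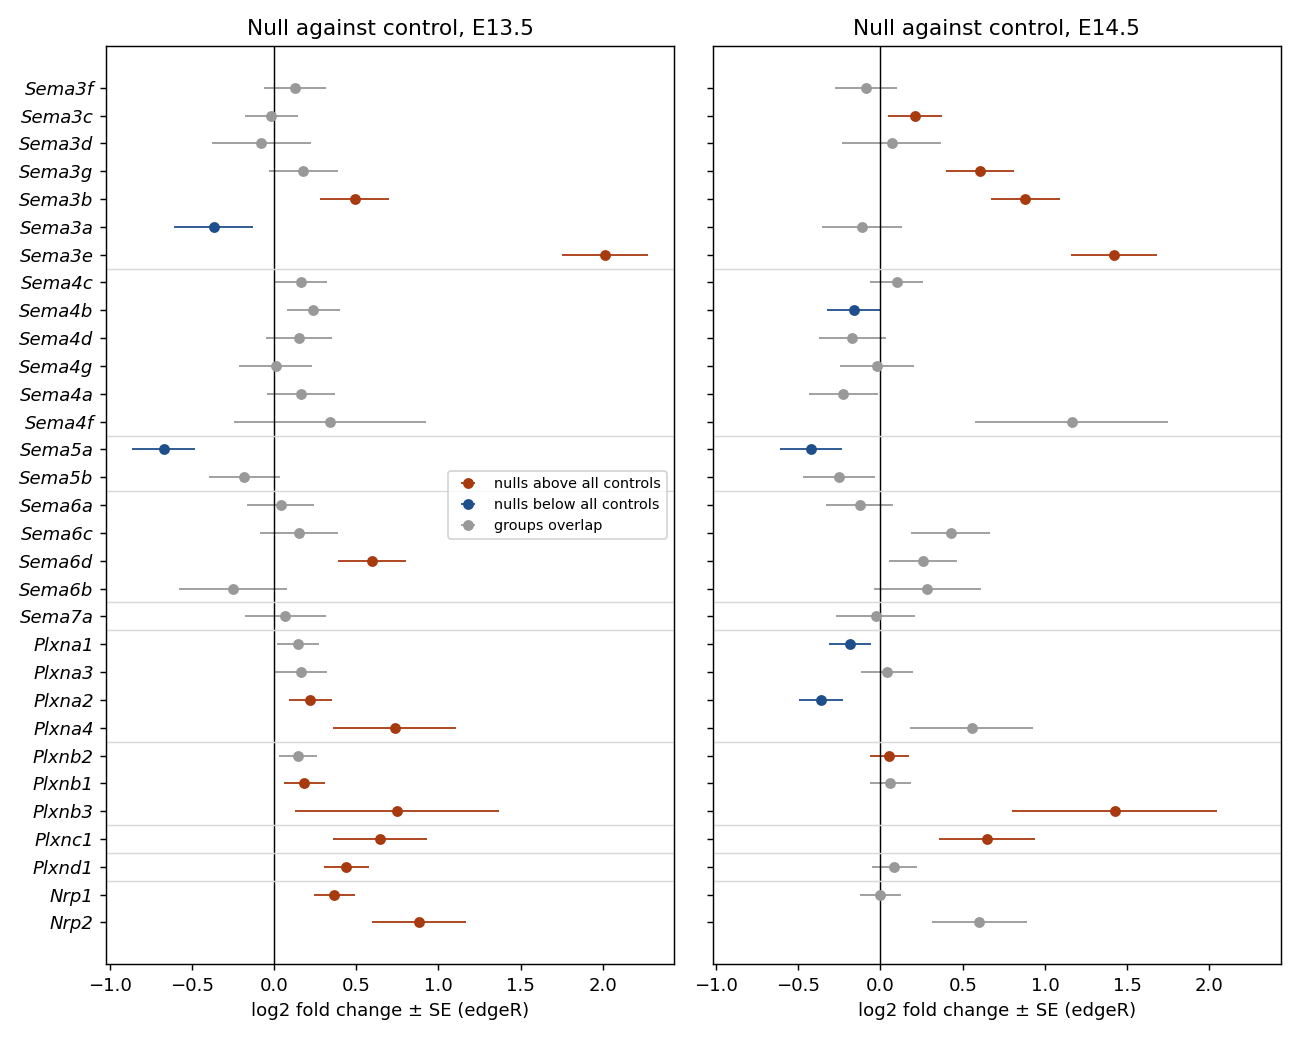
log2 fold change of null-labelled against control libraries with its SE for the 31 genes at each stage, grouped by class. Colour gives whether the null-labelled libraries lay above all controls, below all controls or overlapped them; at E13.5 11 were above and 2 below, and at E14.5 7 were above and 4 below.

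Counted over the family, edgeR called 1 member higher and 0 lower at E13.5, against 0.132 and 0.175 percent of all genes tested, and 0 in either direction at E14.5, where 0.0794 percent of all genes were called higher and 0.0317 percent lower. At E14.5 5 members higher and 2 lower passed an unadjusted p of 0.05, against 5.82 and 2.73 percent of all genes. There DESeq2 called 2, in a fit whose share of all genes is not given here, and limma-voom called 0. With the replicate block the calls were 5 higher and 1 lower at E13.5 (Nrp2, Plxna4, Plxnd1, Sema3e and Sema6d, and Sema5a), and 2 higher and 1 lower at E14.5 (Sema3b and Sema3e, and Sema5a). In the blocked fit 2.07 and 0.926 percent of all genes were called higher and lower at E13.5, and 1.81 and 0.646 percent at E14.5. Over both stages the block called 6 members higher and 2 lower, against 4.11 and 1.72 percent. Groups did not overlap in 11 members higher and 2 lower at E13.5, against 12.7 and 10.9 percent of all genes, and in 7 higher and 4 lower at E14.5. The median log2 difference of the 31 was 0.16 at E13.5 and 0.06 at E14.5, against -0.0092 and -0.019 over all genes tested. No member passed the test of a genotype difference that changes with stage (edgeR, DESeq2 and limma-voom), where 0 percent of all genes were called by edgeR. At an unadjusted p of 0.05, 0 were higher and 1, Plxna2, lower, against 1.21 and 1.19 percent of all genes.

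The other parts of the pathway were followed with a list of 44 partners, which holds co-receptors such as Met and L1cam, the cytoplasmic CRMP and MICAL proteins that relay plexin signals, and small GTPases and their exchange factors. edgeR called 0 of 44 at E13.5, where 5 passed an unadjusted p of 0.05, all higher, against 4.39 percent of all genes tested passing as higher and 2.17 percent as lower. DESeq2 called 1 and limma-voom 0. With the replicate block 4 were called higher and 0 lower, namely Dpysl3, Dpysl5, Kdr and L1cam, in a fit that called 2.07 percent of all genes higher and 0.926 percent lower. Kdr, a VEGF receptor that is also among the endothelial markers, averaged 94.2 CPM in E13.5 controls and 138 CPM in null-labelled libraries (log2 0.55, SE 0.15, edgeR adjusted p = 0.19). L1cam, an adhesion molecule that joins Nrp1 in the Sema3a receptor, averaged 6.03 and 18 CPM (log2 1.58, SE 0.67, edgeR adjusted p = 0.69). At E14.5 0 of 44 were called by edgeR, DESeq2 or limma-voom, with 3 higher and 1 lower at an unadjusted p of 0.05, close to the 5.82 and 2.73 percent of all genes tested. The blocked fit, with 1.81 percent of all genes called higher, called Dpysl3, a CRMP gene, higher, and its E14.5 means were 120.2 and 181 CPM (log2 0.59, SE 0.23, edgeR adjusted p = 0.45). Between stages in controls Mical2, an actin-oxidizing enzyme gene, rose from 32.8 to 59.9 CPM (log2 0.87, SE 0.18, edgeR adjusted p = 0.048), a call lost with limma-voom. The median difference was 0.13 at E13.5 and 0.096 at E14.5. Of the 8 tested genes of the VEGF arm of the neuropilins, all 8 had a positive difference at E13.5 and 7 at E14.5. edgeR called 0 at each stage, with 2 and 3 higher at an unadjusted p of 0.05, against 4.39 and 5.82 percent of all genes tested. limma-voom called 0 at each stage, and DESeq2 called Kdr at E13.5 and 0 at E14.5. Summed, they were at 323, 311 and 290.4 CPM in E13.5 controls and 389.6 and 354 CPM in E13.5 null-labelled libraries, with no overlap, and 348, 328 and 313 CPM in E14.5 controls and 383 and 364 CPM in E14.5 null-labelled libraries, again with none.

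Between stages, Sema5a fell in controls, from 272, 202 and 188 CPM at E13.5 to 149, 109 and 112 CPM at E14.5. The stages did not overlap, and the difference was -0.84 (SE 0.17, edgeR adjusted p = 0.043). Sema5a was the only member edgeR called between stages in controls, where 0.778 percent of all genes tested were called higher and 0.339 percent lower. Of the 31 members 3 were higher and 5 lower without overlap between stages in controls, against 9.93 and 10.6 percent of all genes. The same E13.5 controls enter the genotype comparison of Sema5a, so both comparisons share them. The call was lost without any 1 of E13.5 control 1, 2 or 3, E13.5 null 1 or 2, and E14.5 control 2 or 3, at edgeR adjusted p = 0.053 to 0.24 and differences of -0.94 to -0.66. In null-labelled libraries Sema5a had means of 139 ± 12 and 92.2 ± 15 CPM (SD, n = 2 each) at E13.5 and E14.5, a difference of -0.59 (SE 0.21, edgeR adjusted p = 0.23).

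Sema7a had higher values at E14.5 in controls, from 11.1, 14.3 and 17 CPM at E13.5 to 18, 28.7 and 24.8 CPM at E14.5, with no overlap, at 0.75 (SE 0.22, edgeR adjusted p = 0.11). It was called without E14.5 control 1 (edgeR adjusted p = 0.025). Sema6a was at 80.3, 64.3 and 73.6 CPM and then 61.5, 53.5 and 41.6 CPM, at -0.48 (SE 0.18, edgeR adjusted p = 0.21). In null-labelled libraries 0 members were called between stages by edgeR or limma-voom and 1, Plxna1, by DESeq2, with 2 higher and 6 lower at an unadjusted p of 0.05. Over all genes tested edgeR called 0.201 percent higher and 0.0476 percent lower there, and 7.57 and 6.2 percent passed unadjusted. Plxna1 had means of 172 ± 20 and 113 ± 9.5 CPM (SD, n = 2 each), at -0.6 (SE 0.14, edgeR adjusted p = 0.099). Among the 11 receptors 9 were lower at E14.5 than at E13.5 in null-labelled libraries without overlap. Of the 31 members 4 were higher and 12 lower in that way, against 21.3 percent of all genes tested in each direction. The same E13.5 null-labelled libraries enter the genotype comparison, where 8 of the 11 receptors lay above every control, so both receptor counts share them.

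At E14.5 the libraries numbered 1 stood apart for much of the family. In 20 of 31 members, 64.5 percent, E14.5 control 1 was above both other controls and E14.5 null 1 above E14.5 null 2, which was so for 28.7 percent of all genes tested. At E13.5 the count was 6 of 31, 19.4 percent, against 27.5 percent. Nrp2, Plxna4, Sema3d and Sema6c were among the 20, and Sema3e, Sema3f, Plxnd1 and Sema7a were not. Sema3d, for one, was at 54.9, 39.1 and 26.7 CPM in E14.5 controls and 55.4 and 29.1 CPM in E14.5 null-labelled libraries. Summed markers split the same libraries. The 12 pancreatic progenitor and epithelial genes were at 3937, 7162 and 6281 CPM in E14.5 controls and 2969 and 6309.7 CPM in E14.5 null-labelled libraries. The 12 mesenchyme and fibroblast genes were at 9776, 7578 and 6243 CPM in E14.5 controls and 15653 and 10401 CPM in E14.5 null-labelled libraries. The part of such differences in cell make-up in the family's values was not tested.

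**Figure D5:**
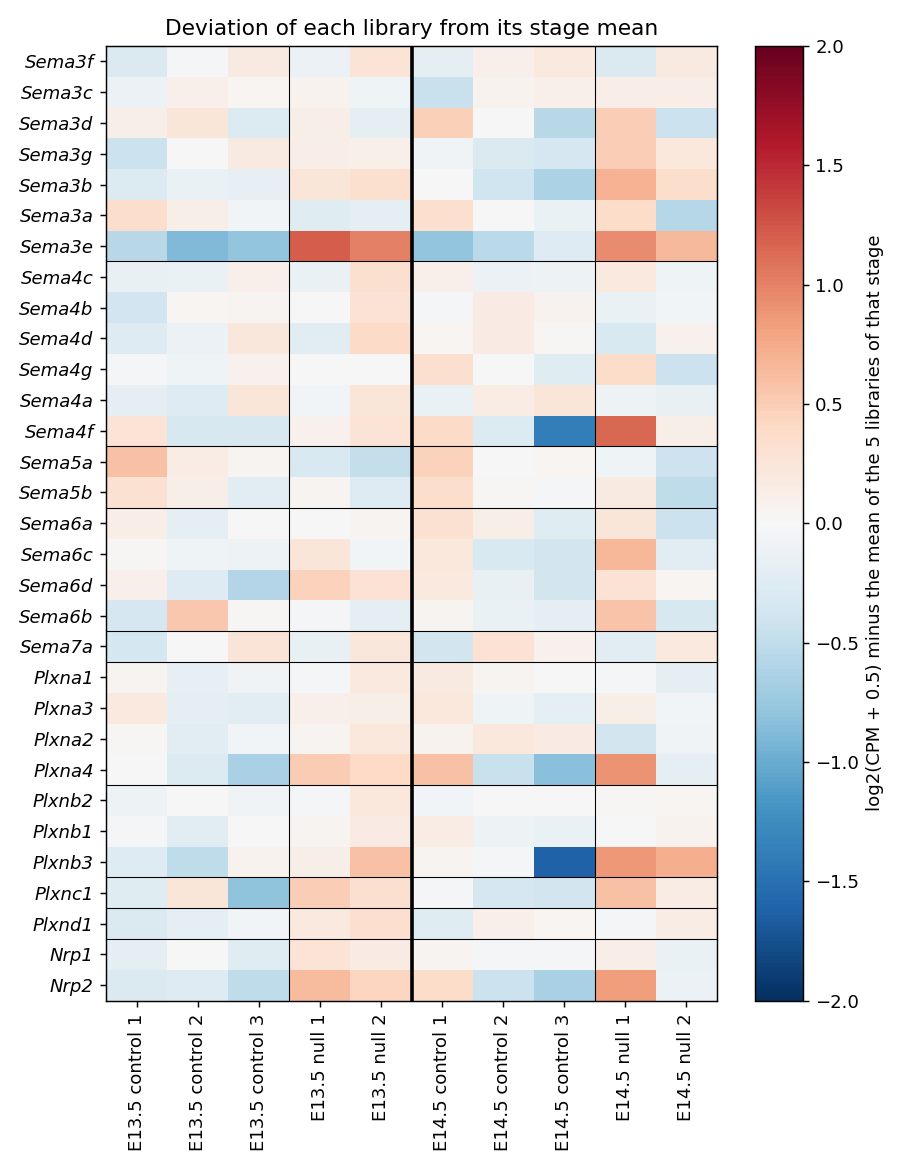
Deviation of each library from the mean of the 5 libraries of its stage, as log2(CPM + 0.5), for the 31 genes; red is higher and blue lower, and null stands for null-labelled. Sema3e is red in all 4 null-labelled libraries and blue in all 6 controls, whereas Nrp2, Plxna4 and Sema3d are red in both E14.5 libraries numbered 1.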

How the data were processed

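Raw read counts for every gene, as deposited by the authors, came from poly(A) libraries (NEBNext Ultra II, per the labels) handled with TopHat, HTSeq and DESeq2 on mm10, per the submitters' processing notes. Tool versions and the strand setting were not given in the sources used here, and reads of overlapping antisense genes cannot be separated. Annotated genes overlapping Sema3e and Sema5a had at most 6 reads in a library, and none overlapped Sema3b. Of members called with the replicate block only, Nrp2 is overlapped on its own strand by Gm37121, with at most 16 reads in a library. Plxna4 is overlapped by Plxna4os1, with at most 19. Reads of the genes overlapping Sema5b and Sema6d were not looked up.

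The test was edgeR's quasi-likelihood F test (edgeR 4.0.16, R 4.3.3) after TMM normalization and a filter on expression by group, fitted with 4 group means on all 10 libraries. Benjamini-Hochberg adjustment ran over all 18898 genes, at a threshold of 0.05. Residual degrees of freedom were 6. SE is the log2 difference divided by the square root of F, and 95% intervals are built from it. CPM use TMM-scaled totals of tested genes. Exon lengths and positions are from GENCODE M21 on GRCm38, and all 31 genes matched by identifier. Alternatives were DESeq2 1.42.0, limma-voom (limma 3.58.1), RLE normalization, no filter, only the groups compared, the replicate number as a block, each library left out in turn, and both null-labelled libraries numbered 1 left out.

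Values of every library are given for members called in a comparison, members without overlap at both stages, and the most abundant member of each class, with 3 exceptions. Sema4c is given at E13.5 only, and Sema6a and Sema7a without their E14.5 null-labelled libraries. Nrp2, Plxna2, Plxna4, Sema3a, Sema3c, Sema3d and Sema3g were added after their values were seen, and so were the start regions shown and the partner genes named. The members, lists and alternatives were chosen with earlier results of these data known.

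Whether replicate numbers pair the pools was checked on deviations from group means across genes. The correlation of control and null-labelled libraries with the same number was 0.365 and 0.139 at E13.5 and 0.345 and 0.162 at E14.5, all over 0.1, and numbers were used as pairs for genotype by that rule alone. That support is weak. Control 3 of each stage, which has no partner, had a higher correlation with null 2 than control 2 did, at 0.245 and 0.221. The 2 null-labelled libraries of a stage also mirror each other around their mean, so E13.5 control 1 had 0.365 with null 1 and -0.365 with null 2. The 2 same-number correlations of a stage are therefore not independent checks of pairing. The blocked fit keeps 2 residual degrees of freedom. In controls of the same number across stages the correlations were 0.302, 0.0393 and 0.16 and no pairing is assumed. Replicates of a group differed beyond sampling noise (chi-square per gene 12.1 to 48.4), so all were kept as separate. In a test on simulated E13.5 libraries, edgeR found 54 of 100 genes simulated at 2-fold and 77 of 100 at 4-fold, with 15 false calls in 18251 genes. For E14.5 it found 40 and 79, with 7 false calls in 18298 genes.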

Additional observations from a re-analysis of the deposited data

Results flagged for a closer look

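Plxna2, a plexin of class 3 and class 6 signalling, had differences of opposite sign at E13.5 and E14.5. It was at 89.7, 75.6 and 85.2 CPM in E13.5 controls and 92.5 and 102 CPM in E13.5 null-labelled libraries, with both null-labelled libraries above every control. At E14.5 it was at 91.1, 101 and 97.9 CPM in E14.5 controls and 67.5 and 82.7 CPM in E14.5 null-labelled libraries, with both below every control. The difference between the stages was tested as an interaction and was -0.58 on the log2 scale (SE 0.18, edgeR unadjusted p = 0.008, adjusted p = 0.99996), so it did not pass over all genes. The stage effect itself was 0.21 in controls and -0.37 in null-labelled libraries.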

How the results depend on the processing

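The number of members called at E13.5 was 1, and it became 5 with no filter on low counts, 2 with only the groups compared, 6 with the replicate block and 0 without both null-labelled libraries numbered 1. At E14.5 it was 0, and 2 with DESeq2, 4 with no filter and 3 with the replicate block. Over both stages it was 2, and 4, 7, 8 and 1 with DESeq2, no filter, the replicate block and without both null-labelled libraries numbered 1. Between stages in controls it was 1, and 2, 0, 3 and 2 with DESeq2, limma-voom, no filter and the replicate block. Between stages in null-labelled libraries it was 0, and 1, 4 and 2 with DESeq2, no filter and the replicate block. Leaving out 1 library at a time gave 0 to 1 at E13.5, 0 to 2 at E14.5, 1 to 4 over both stages, 0 to 2 between stages in controls and 0 to 0 between stages in null-labelled libraries. The lowest count at E13.5 came without E13.5 control 2, E13.5 null 1 or E13.5 null 2, and the highest counts at E14.5, over both stages and between stages in controls without E14.5 control 1. The interaction with stage kept 0 calls under every alternative. RLE normalization changed no count. With no filter on low counts the prior degrees of freedom went from 6.31 to infinite. Shares of all genes called are given above for the main fit, and for the replicate block between genotypes, but not for the other fits. Member counts from those other fits are therefore not a result about the family. The cause of these changes was not tested.

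Single log2 differences were followed for the members named, over 636 pairs of a value and an alternative, of which 5 changed sign. At E14.5 Plxna4 was -0.095 without E14.5 null 1 and -0.096 without both null-labelled libraries numbered 1, Plxnd1 -0.015 without its control 1 and -0.0096 without its null 2, and Sema5b was 0.056 without E14.5 null 2, none of them called. Leaving out 1 library at a time, the E14.5 differences ran from -0.095 to 1.09 for Plxna4, -0.015 to 0.17 for Plxnd1 and -0.63 to 0.056 for Sema5b. Ranking members by the longest transcript in place of all exons kept the same 10 most abundant genes and the same leader in every class, but put Nrp1 at rank 2 in every group and Plxnd1 at rank 3 or 4. Plxnb3, Sema4f and Sema3e rest on the fewest reads, and counting error weighs most on them.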

Other observations

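The antisense transcripts of Plxna4 were left out of the family. Over the 10 libraries Plxna4os1 had 46 reads, Plxna4os2 had 16 and Plxna4os3 had 5. Of the 16 reads of Plxna4os2, 14 were in E14.5 control 1, and of the 46 of Plxna4os1, 19 were in E13.5 control 1.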
